A study of Homo sapiens with 2 samples.

Results

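The CD34 GATA2 cells are progenitors from the endothelial-to-hematopoietic transition (EHT) that carried transcripts of both CD34 and GATA2 while staying under set limits for genes of single blood lineages. CD34 is a surface sialomucin of endothelium and blood progenitors, and GATA2 is a transcription factor of early progenitors. A cell belonged to them if it had at least 2 unique molecular identifiers (UMIs, each one captured transcript) of CD34 and at least 2 of GATA2. It also had to have fewer than 3 UMIs of SPINK2, fewer than 3 of CPA3 and fewer than 3 of C1QA, C1QB and C1QC together. The last limits were fewer than 10 UMIs of PF4 and PPBP, fewer than 20 of the azurophil granule genes ELANE, PRTN3 and AZU1, and fewer than 20 of the 6 globin genes HBG1, HBG2, HBE1, HBZ, HBA1 and HBA2. Of 7550 kept cells, 1413 met this rule (18.7%, exact Clopper-Pearson 95% interval 17.8 to 19.6). The interval covers counting error alone, and the share was 12.1% with a minimum of 3 UMIs of CD34 and of GATA2 and 4.76% (35 of 736 cells) with a mitochondrial limit of 10%. The cells were selected on measured UMIs of these genes, so all differences given here describe the cells of this library and carry no test.

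CD34+ cells made from the human iPSC line iPS11, which was derived episomally from foreskin fibroblasts, were plated in EHT medium on plates of 4 kinds. These were uncoated, coated with DLL4 at 15 μg/ml, coated with VCAM1 at 2.5 μg/ml, or coated with both, and the nonadherent cells were taken on day 5. The 3 wells of each condition were pooled, labeled with a hashtag antibody (0252, 0253, 0254 or 0255), and captured as 1 library of single-cell RNA. No label ties a hashtag to its coating, so values are given by hashtag and coatings are not compared. With 1 library and 1 pool per hashtag there were no replicates, and the intervals cover counting error only.

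In the hematopoietic hierarchy, GATA2 acts early, in hemogenic endothelium and in stem and progenitor cells, and GATA1 takes over many of its binding sites as cells enter the erythroid, megakaryocyte, mast cell and eosinophil lineages. The factors TAL1, LYL1 and GFI1B work with GATA proteins at shared enhancers. A progenitor can hold low levels of transcripts from several lineages before any one of them dominates.

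The genes of the rule describe where the cells sat. The median CD34 GATA2 cell had 4 UMIs of CD34, with a range of 2 to 15, and 5 of GATA2, with a range of 2 to 27. CD34 lies at chr1:208054317-208084747 and GATA2 at chr3:128198270-128212044, both on the minus strand of hg19. Among kept cells 1793 had at least 2 UMIs of both genes, and 380 of these were over a lineage limit, most often that for SPINK2 (200 cells), then globin (78), ELANE, PRTN3 and AZU1 (54), CPA3 (46), C1Q (16) and PF4 with PPBP (12). Within the CD34 GATA2 cells 77.2% had no SPINK2 UMI, 82.4% no CPA3, 92.7% no C1Q and 60.4% none of the 6 globins. Just inside the minimum lay 500 cells whose smaller count of CD34 and GATA2 was 2, and just outside it lay 655 cells under every lineage limit whose smaller count was 1. At the SPINK2 limit, 94 of the CD34 GATA2 cells had 2 UMIs and 61 cells missed the rule with exactly 3.

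The CD34 GATA2 cells were deep and their share followed depth. They had a median of 20501 gene UMIs, 4426 genes and 14.2% mitochondrial UMIs, against 17760, 4120 and 12.8% in the other 6137 kept cells. In 5 groups of kept cells of equal size, from the shallowest to the deepest, they made up 4.44%, 15.5%, 23.0%, 24.4% and 26.2%. When counts were scaled to 18000 UMIs per cell before the rule was applied, the share was 15.1%.

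By hashtag, CD34 GATA2 cells were 425 of 2136 kept cells for 0252 (19.9%, 18.2 to 21.7), 390 of 1996 for 0253 (19.5%, 17.8 to 21.3), 369 of 1847 for 0254 (19.98%, 18.2 to 21.9) and 229 of 1571 for 0255 (14.6%, 12.9 to 16.4). The first 3 intervals overlapped, and that of 0255 lay below them. CD34 GATA2 cells also carried fewer hashtag UMIs than other kept cells, with medians of the called hashtag of 326 against 581 for 0252, 426 against 706 for 0253, 538 against 780 for 0254 and 545 against 821 for 0255. From 0252 to 0255, 14.4%, 25.9%, 27.4% and 36.7% of them lay within 1.2 times the smallest count that was still called, against 4.44%, 8.16%, 9.40% and 14.4% of other kept cells. The part of hashtag labeling in the lower share of 0255 was not tested.

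CYTL1, a small secreted protein first cloned from CD34+ marrow cells, was taken as a further marker of these cells and is not in the rule. Levels are given as counts per 1000000 gene UMIs (CPM) over the summed UMIs of a group. CYTL1 (chr4:5016313-5021185, minus strand) was at 266, 224, 264 and 220 CPM in the CD34 GATA2 cells of hashtags 0252 to 0255, and at 130, 95.5, 144 and 114 CPM in the other kept cells. All 4 values of the CD34 GATA2 cells were above all 4 of the others, but the share of all genes that do so was not counted. In the pool CYTL1 was at 246 against 121 CPM, 2.04-fold (95% counting interval 1.98 to 2.10). The gene did not set these cells apart from every group, since SPINK2 progenitors (at least 2 CD34 and 3 SPINK2 UMIs, other limits met) had 172 CPM and globin cells 296 CPM. After each cell was thinned to 5000 UMIs, 62.8% of CD34 GATA2 cells had a CYTL1 UMI, against 11.7% of C1Q cells (at least 3 UMIs of the C1Q genes, as in macrophages), a type that should lack it. Before thinning the shares were 93.1% and 28.1%, at median depths of 20501 and 13751 UMIs.

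Across CD34 and GATA2 counts CYTL1 changed little inside the rule. It was at 246, 258 and 240 CPM in cells whose smaller count was 2, 3 and 4 or more, and at 227 CPM in the 655 cells just outside. Cells under every lineage limit with none of CD34 or of GATA2 had 104 CPM. Thus the 655 cells just outside the minimum lay near the CD34 GATA2 cells in this gene, and the same held for GATA1 (106 CPM outside, 116 CPM just inside) and HDC (87.2 and 101 CPM).

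Over the transcriptome few genes differed by 2-fold or more. Of 8115 genes with at least 10 CPM in CD34 GATA2 cells or in other kept cells, 110 (1.36%) were at least 2-fold higher in the pool and higher in all 4 hashtags, and 310 (3.82%) were at least 2-fold lower in the pool and lower in all 4. These counts became 33 and 177 with a pseudocount of 10 CPM and 182 and 608 with a mitochondrial limit of 10%. Among genes with at least 50 CPM they were 40 and 88. A closer comparison is that with lineage-low cells, the 2755 kept cells under every lineage limit that missed the minimum of CD34 or GATA2. There 72 of 8012 genes (0.899%) were higher and 215 (2.68%) lower by the same standard. Against the 851 SPINK2 progenitors, 227 of 7977 genes (2.85%) were higher and 126 (1.58%) lower, and against the 102 CPA3 cells 85 of 8048 (1.06%) were higher and 116 (1.44%) lower.

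The gene with the largest ratio over other kept cells was STXBP6, which encodes a SNARE-binding protein of vesicle fusion. It was at 81.4, 71.7, 74.5 and 58.0 CPM in the CD34 GATA2 cells of the 4 hashtags and at 16.2, 11.4, 18.3 and 12.5 CPM in other kept cells, 5.00-fold in the pool (4.69 to 5.33). Over lineage-low cells it was 3.09-fold higher (2.88 to 3.32), and CPA3 cells had 45.8 CPM. SFRP5, a secreted Wnt antagonist, had 73.0, 61.2, 55.0 and 37.9 CPM by hashtag against 17.4, 14.5, 14.4 and 8.38 CPM, 4.25-fold (3.97 to 4.55). For both genes each value in the CD34 GATA2 cells was above each value in the others. This was close to given, since the leading genes were the largest ratios among genes higher in all 4 hashtags. SFRP5 was higher still in globin cells (93.6 CPM).

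The remaining 8 leading genes were CCDC173, a cilium-associated protein (3.72-fold), HDC, histidine decarboxylase, the enzyme that makes histamine (3.62-fold), FAM83A (3.86-fold), CKB, the brain form of creatine kinase (3.33-fold), GYPE, glycophorin E (3.35-fold), RHAG, the Rh-associated glycoprotein of red cell membranes (3.32-fold), FREM1, an extracellular matrix protein (3.50-fold), and ARID5B, a chromatin regulator (3.26-fold). HDC was at 114, 133, 129 and 105 CPM by hashtag against 33.5, 31.1, 41.4 and 28.2 CPM in other kept cells, and CPA3 cells had 232 CPM. RHAG was at 129, 126, 119 and 79.4 CPM against 44.2, 35.3, 35.1 and 24.3 CPM. The groups did not overlap by hashtag in either gene, which the pick of the leading genes made likely. The leading genes included ones used by red cells and by mast cells.

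**Figure D1:**
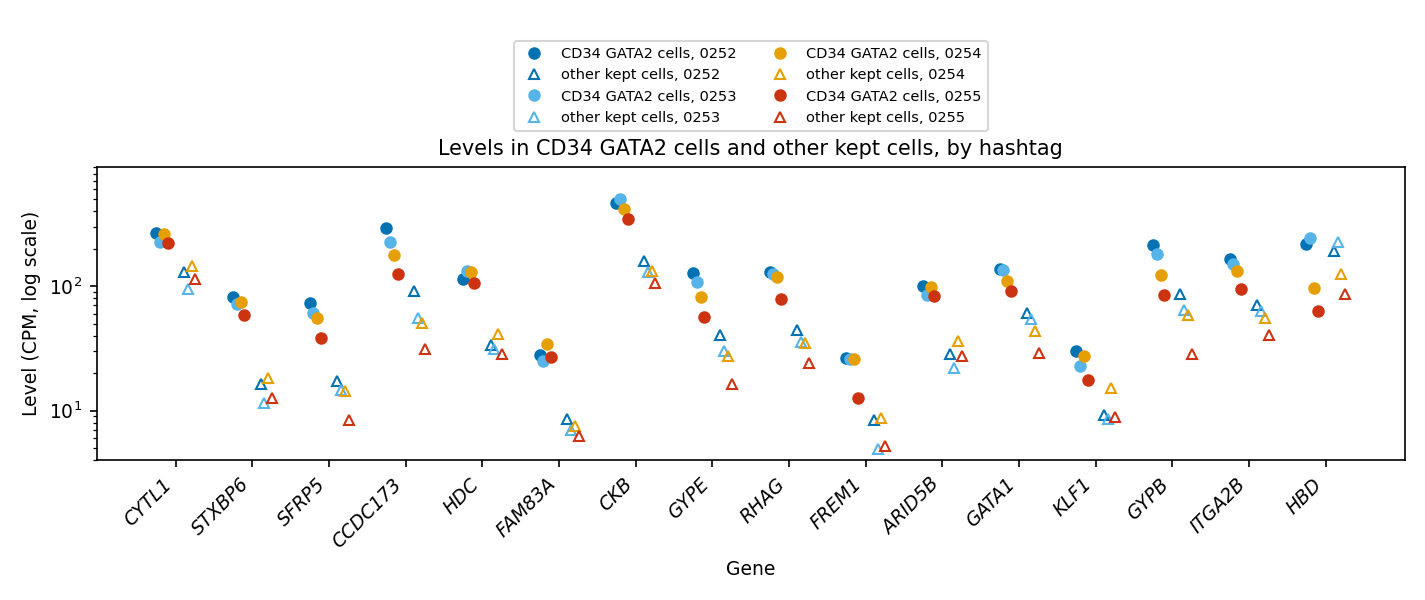
Levels in CPM on a log axis for CYTL1, the 10 genes with the largest ratio over other kept cells, and 5 further genes of the erythroid and megakaryocyte lineages, with filled circles for CD34 GATA2 cells and open triangles for other kept cells of the same hashtag. The circles lie above the triangles of their own hashtag for every gene shown except HBD, where 0254 and 0255 are the other way round (96.8 against 124 and 63.1 against 86.7 CPM).

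Some erythroid, megakaryocyte and mast cell genes outside the rule were higher than in other kept cells, but their lists were divided. By the 1.5-fold standard for lists given further on, 5 of 13 measured erythroid and megakaryocyte genes were higher and 1 was lower. Of 9 measured mast cell, basophil and eosinophil genes 3 were higher and 4 were lower. GATA1 (chromosome X), the factor of red cells, platelets and mast cells, was at 137, 135, 110 and 91.1 CPM in the CD34 GATA2 cells and 60.7, 54.3, 43.2 and 29.0 CPM in other kept cells, 2.55-fold (2.44 to 2.66). KLF1, the erythroid Krüppel-like factor, was at 25.3 against 10.5 CPM and ITGA2B, the platelet integrin subunit CD41, at 141 against 58.2 CPM. All 3 were higher in each hashtag. In thinned cells GATA1 was seen in 40.7% of CD34 GATA2 cells and 1.55% of C1Q cells, HDC in 37.7% and 1.21%, GYPB in 32.2% and 2.21%, and KLF1 in 10.1% and 0.773%. C1Q cells are unlike the CD34 GATA2 cells. GATA1 and HDC were not particular to the latter, since cells with at least 3 UMIs of CPA3 had a similar level of GATA1 and more HDC.

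Against the SPINK2 progenitors, which also carry CD34, the largest pair of ratios was that of erythroid genes. SPINK2 progenitors had no minimum of GATA2, and 187 of the 851 had at least 2 UMIs of it. The part of this selection on GATA2 in the ratios was not tested. GYPB, glycophorin B, was at 160 CPM against 3.64 (43.9-fold, 34.6 to 56.5), and HBD, the delta globin gene, which is not among the 6 globins of the rule, at 170 against 4.54 CPM (37.4-fold). That HBD level rested on few cells, since 60 of them held 75.3% of its UMIs, and in 1317 CD34 GATA2 cells outside small subsets described further on it was 44.8 CPM. Next came GAD1, glutamate decarboxylase (31.3-fold), MYL4, an embryonic myosin light chain (27.2-fold), CMTM5 (23.8-fold), SFRP5 (20.9-fold), RHAG (20.3-fold) and DHRS9, a retinol dehydrogenase (13.0-fold). GATA1 was 12.3-fold higher (10.7 to 14.4). GYPB and HBD were under 10 CPM in SPINK2 progenitors and passed the filter through the CD34 GATA2 cells alone. Their direction was thus fixed by the filter, as for any other gene named here that was under 10 CPM there. The glycophorin genes are close copies of each other, so reads may have been divided between them, and their single values are uncertain.

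Lower than in SPINK2 progenitors were CYP1B1, a cytochrome P450 (0.966 against 29.5 CPM), ACY3, an aminoacylase (15.5 against 226), IRF8, a factor of monocytes and dendritic cells (2.43 against 24.0), HOPX, a homeodomain protein of quiescent stem cells (7.93 against 56.4), ABI3 (9.19 against 67.4), CXorf21 (3.03 against 25.1), S100A9 (6.09 against 44.7) and PRAM1 (6.06 against 43.0). All of these but ACY3 were under 10 CPM in the CD34 GATA2 cells and passed the filter through SPINK2 progenitors alone. Their lower direction was fixed by the filter. MYCN was at 71.9 CPM in both groups. CD34, which both were required to carry, was at 213 and 249 CPM.

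**Figure D2:**
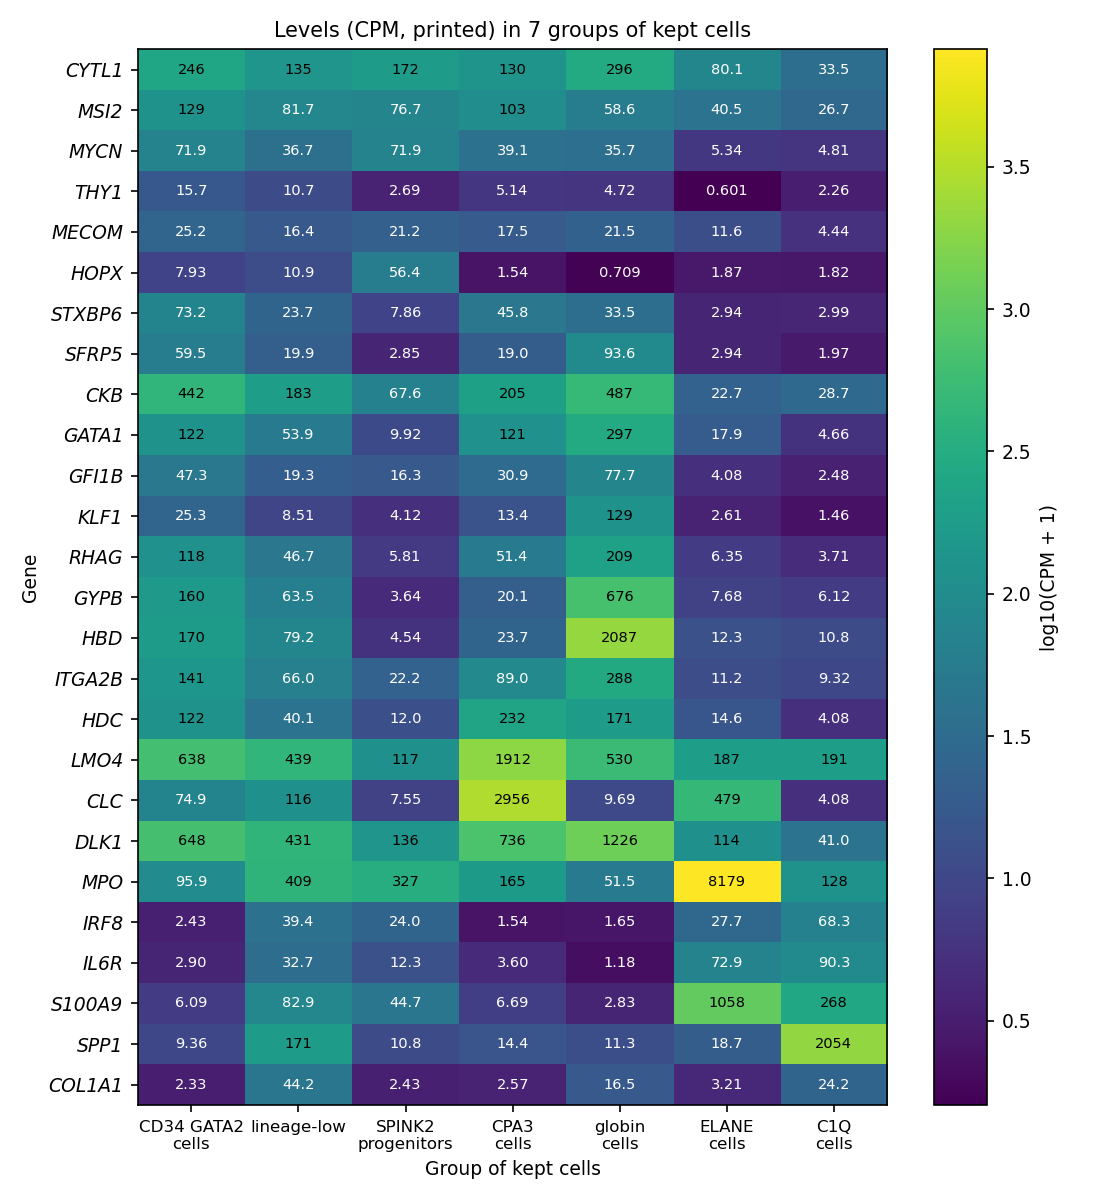
Levels of 26 genes in 7 groups of kept cells, with the CPM printed in each cell of the grid and the color giving log10(CPM + 1). The CD34 GATA2 column shares RHAG, GYPB and ITGA2B with the globin column, HDC and LMO4 with the CPA3 column, and GATA1 with both. In the CD34 GATA2 column S100A9, SPP1 and COL1A1 lie at 6.09, 9.36 and 2.33 CPM.

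CPA3 cells are those with at least 3 UMIs of CPA3, the carboxypeptidase of mast cells and basophils. CD34 GATA2 cells had less of CLC, the Charcot-Leyden crystal protein of eosinophils (74.9 against 2956 CPM), HPGDS, prostaglandin D synthase (2.06 against 83.9), FST, follistatin (8.29 against 199), and the mast cell tryptase TPSAB1 (0.733 against 29.3). They had more of GAD1 (44.6 against 3.60 CPM) and of GJA4, connexin 37 of arterial endothelium (29.1 against 2.57). HPGDS, FST and TPSAB1 passed the filter through CPA3 cells alone, and GAD1 and GJA4 through the CD34 GATA2 cells alone. The filter fixed their direction. GATA1 did not separate CD34 GATA2 cells from CPA3 cells, at 122 and 121 CPM.

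Read as lists, with 1.5-fold in the pool and the same direction in all 4 hashtags as the standard, 340 of 8115 genes (4.19%) were higher than in other kept cells and 541 (6.67%) lower, and the median log2 ratio of all genes was -0.02. By the same standard 5.80% of 7977 genes were higher and 4.06% lower than in SPINK2 progenitors, 3.40% and 3.91% of 8048 genes than in CPA3 cells, and 3.52% and 4.53% of 8012 genes than in lineage-low cells. A gene counted as measured with 10 CPM in either group, so a gene that passed through 1 group alone had to be higher there, and their number is given for several lists. Of the 16 stem cell genes 10 were measured, of which 9 were higher and 1 was lower, with a median log2 ratio of 0.94, and 1 passed through the CD34 GATA2 cells alone and 1 through other kept cells alone. Over SPINK2 progenitors 4 of 11 were higher and 2 lower, with a median of 0.38, but 2 of the 11 passed through the CD34 GATA2 cells alone and 2 through SPINK2 progenitors alone. The summed CPM of the list was 458 here, 369 in SPINK2 progenitors and 242 in other kept cells. Among the genes higher than in other kept cells were THY1 or CD90, a surface protein of stem cells (15.7 against 5.91 CPM), MYCN, MSI2, TCF15, AVP, MLLT3, MECOM and MEIS1. HOPX was lower. The stem cell factor HLF was scarcely detected, in 11 of 1413 cells after thinning, and was under 10 CPM, so nothing can be said of it at this depth.

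Of 15 measured transcription factors of blood emergence 6 were higher and 1 was lower (median 0.36). GFI1B, a repressor needed by red cells and platelets (47.3 against 19.4 CPM), ERG, ZBTB16, TAL1 (65.7 against 36.1), LYL1 (288 against 162) and IKZF2 were higher, and LMO2 was lower. RUNX1, the factor that drives EHT, was at 77.0 and 75.9 CPM. In the list of 20 early erythroid and megakaryocyte genes 13 were measured and 5 were higher (GATA1, ITGA2B, KLF1, CNRIP1 and NFE2), while CD36, a scavenger receptor also found on macrophages, was lower. Of these 13, 1 passed the filter through other kept cells alone. Over SPINK2 progenitors 10 of 12 measured genes of that list were higher and none was lower, with a median of 1.07, and 4 of the 12 passed the filter through the CD34 GATA2 cells alone.

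Of 9 measured mast cell, basophil and eosinophil genes 3 were higher than in other kept cells (HDC, LMO4 and IL1RL1, the interleukin-33 receptor) and 4 were lower, and the median of -0.72 was below 0. Compared with SPINK2 progenitors 8 of 9 were higher and the median was 2.39, but 5 of the 9 passed the filter through the CD34 GATA2 cells alone. Compared with CPA3 cells, which were chosen for a mast cell gene limited in the CD34 GATA2 cells, 12 of 12 were lower and the median was -3.07, and 3 of the 12 passed through CPA3 cells alone. LMO4, a LIM-only adaptor protein, was at 638 CPM, against 325 in other kept cells, 117 in SPINK2 progenitors and 1912 in CPA3 cells. In LMO4 the CD34 GATA2 cells lay between SPINK2 progenitors and CPA3 cells.

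Most measured genes of the mature myeloid lists were lower than in other kept cells. None of 18 measured neutrophil and monocyte genes was higher and 13 were lower (median -1.98), with MPO, myeloperoxidase, at 95.9 against 1413 CPM and S100A9 at 6.09 against 240, and 7 of the 18 passed the filter through other kept cells alone. Against SPINK2 progenitors 4 of 14 genes of this list were higher and 6 lower (median -0.18), and 3 passed through SPINK2 progenitors alone. All 9 measured macrophage and HLA class II genes were lower (median -1.81), with SPP1, osteopontin, at 9.36 against 346 CPM, and 1 of the 9 passed through other kept cells alone. Over SPINK2 progenitors, by contrast, 4 of the 9 measured were higher and none was lower (median 0.50, summed 349 against 238 CPM), and against CPA3 cells none was called (median 0.06). Of 10 stromal genes 7 were measured, but 6 of them passed the filter through other kept cells alone, so that their lower level was fixed by the filter. The summed CPM of that list was 42.1 against 196, with SPARC its most abundant gene. The rule itself limited granule and C1Q genes. Lineage-low cells met the same limits, and against them 9 of 16 neutrophil and monocyte genes and 7 of 9 macrophage genes were lower, with 5 and 1 that passed through lineage-low cells alone. In that comparison 1 gene of the neutrophil and monocyte list was higher.

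Of 9 measured lymphoid genes 2 were higher than in other kept cells (CD7 and IGLL1) and 4 were lower, namely LTB, CD3D, CD3E and CD3G, and 2 of the 9 passed through other kept cells alone. Over SPINK2 progenitors 1 of 10 was higher and 5 were lower, with a median of -1.14 and a summed level of 428 against 742 CPM, and 3 of the 10 passed through SPINK2 progenitors alone. IGLL1, a surrogate light chain of early B cells, was at 159 CPM here and 165 CPM in SPINK2 progenitors. Of 7 measured endothelial genes ESAM, TIE1 and SOX18 were higher, and ESAM, an adhesion molecule of endothelium and platelets, was at 40.5 CPM here, 19.2 CPM in other kept cells and 80.8 CPM in globin cells. CDH5, the cadherin of endothelium, was under 10 CPM.

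Among 5 measured notch genes HES1, a target of notch signaling, was higher (46.0 against 23.1 CPM) and the receptor NOTCH1 was lower (17.8 against 29.5 CPM). Of 7 measured receptors for cytokines of the EHT medium CSF2RB, the shared beta chain of the interleukin-3 and GM-CSF receptors, was higher (49.2 against 24.0 CPM). IL3RA and IL6R were lower, and IL6R stood at 2.90 against 40.3 CPM. Both are among 3 genes of that list that passed the filter through other kept cells alone, so their direction was fixed by the filter. Among the surface proteins of progenitors CD82 and PROCR were higher, and PTPRC (CD45), CD48 and CD9 were lower, of 13 measured. Of the 13, 1 passed the filter through the CD34 GATA2 cells alone and 1 through other kept cells alone. Of 7 measured VCAM1-binding integrins and linkers FERMT3, the kindlin of blood cells, was higher, and ITGA4 (22.6 against 36.0 CPM) and ITGB7 were lower. Of the 7, 1 passed the filter through other kept cells alone.

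HOX genes of the B cluster were detected, and 4 of 8 measured were higher (HOXB2, HOXB5, HOXB6 and HOXB9), with HOXB9 at 45.8 against 26.8 CPM, and 4 of the 8 passed the filter through the CD34 GATA2 cells alone. Of 6 measured genes of the embryonic and fetal program DLK1, an imprinted growth regulator, was higher (648 against 316 CPM) and LIN28B, HMGA2 and the IGF2BP genes were within 1.5-fold. None of 17 DNA synthesis genes and none of 18 mitosis genes passed 1.5-fold in either direction, with medians of 0.01 and -0.03. Of 10 measured immediate early and heat shock genes 3 were lower and none was higher, and 3 of the 10 passed the filter through other kept cells alone.

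**Figure D3:**
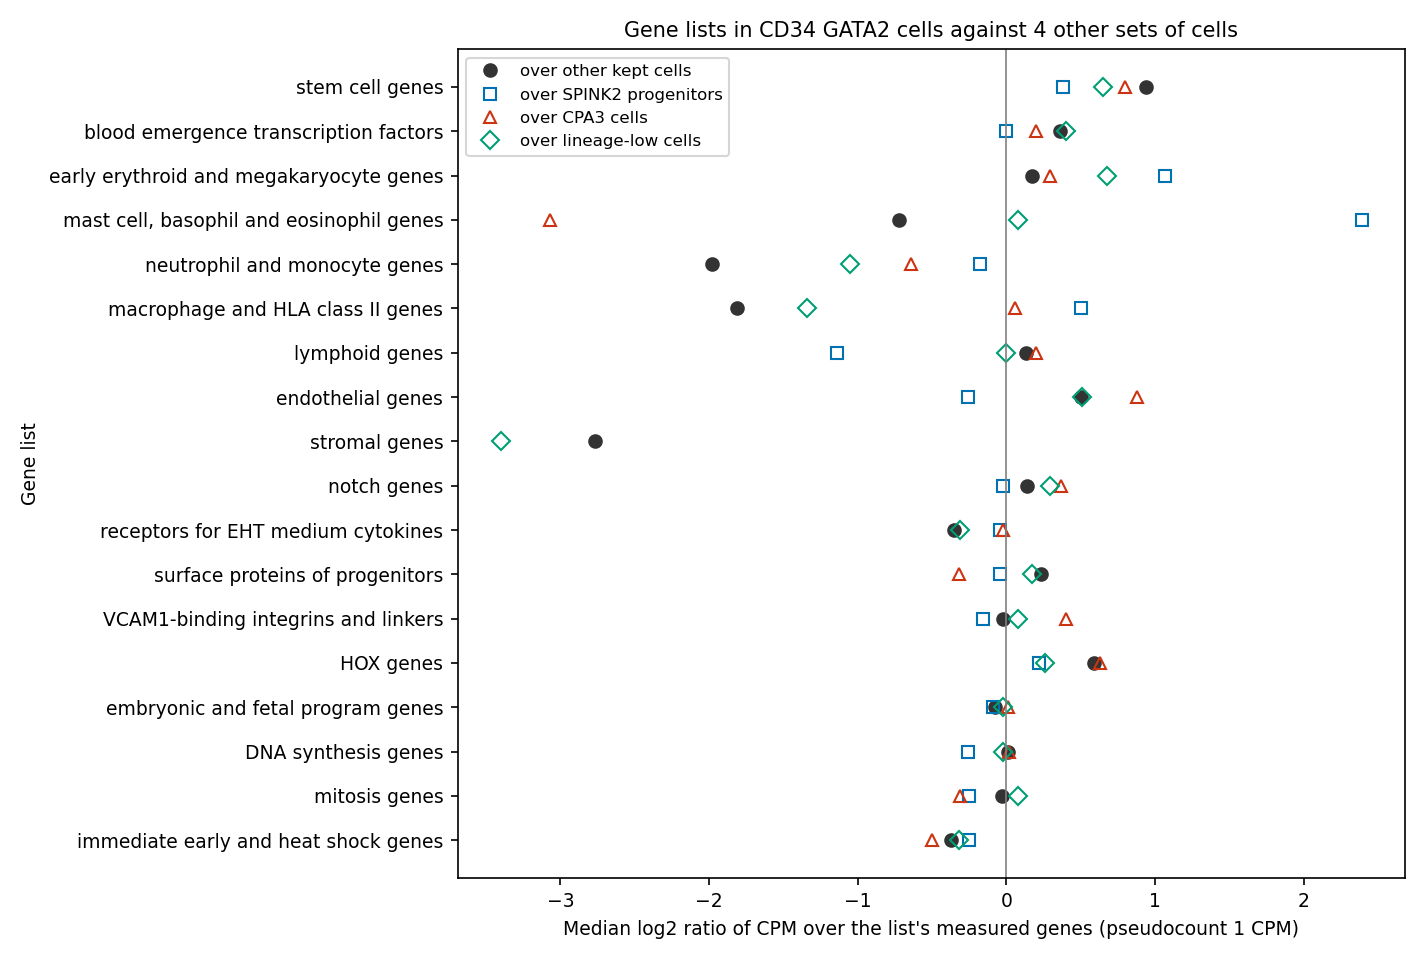
Median log2 ratio of CPM over the measured genes of each of the 18 lists, for CD34 GATA2 cells over other kept cells, SPINK2 progenitors, CPA3 cells and lineage-low cells, where at least 3 genes of the list were measured. The mast cell, basophil and eosinophil list spans 2.39 over SPINK2 progenitors to -3.07 over CPA3 cells, and both cell cycle lists lie between -0.31 and 0.08.

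Variation among the CD34 GATA2 cells was described in depth-matched counts. After thinning to 5000 UMIs, which left out none of them, the median ratio of variance to mean over 5366 genes was 1.04, and 59 genes were above 2. Counting noise holds this ratio near 1 for genes with few UMIs per cell, so the median does not show that the cells were alike. Summed lists varied more, with a median of 4 UMIs of the erythroid and megakaryocyte list per cell (5th to 95th percentile 1 to 15, ratio 7.03), 3 of the mast cell, basophil and eosinophil list (0 to 20, ratio 10.2) and 7 of the mitosis list (0 to 31, ratio 9.85). The highest single genes were the nuclear RNA MALAT1 (24.0), HBD (17.5), CLC (16.6), GSTP1 (11.5), the histone gene HIST1H4C (9.33), the eosinophil granule gene PRG3 (8.90), LMO4 (7.98), EPX, eosinophil peroxidase (7.20), BCYRN1 (6.34) and GPX1 (5.42). HBD and CLC came from few cells, since 17.1% of cells had a thinned HBD UMI and 5.80% a CLC UMI, and the 10% of cells with the most held 91.9% and all of those UMIs.

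A pair of small subsets, singled out after these values were seen, carried most of that signal. In 60 CD34 GATA2 cells (4.25%, 3.26 to 5.43) there were at least 20 raw UMIs of HBD, with a median of 43, while the 6 globins of the rule had a median of 2 UMIs and at most 18. These 60 cells held 75.3% of the HBD UMIs of all CD34 GATA2 cells, and their GATA1 was 262, GYPB 546 and ITGA2B 333 CPM. The low globin counts were set by the rule. In globin cells, chosen for those globins, HBD was at 2087 CPM. HBB, the adult beta globin, was below 1 CPM in CD34 GATA2 cells. HBG1 with HBG2 and HBA1 with HBA2 are near-identical pairs, so their reads may be under-counted.

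The other subset had at least 20 UMIs of CLC, PRG3 and EPX together, in 36 cells (2.55%, 1.79 to 3.51), which held 72.1% of the UMIs of those genes. Their GATA2 median was 9 UMIs and their CPA3 median 0, with LMO4 at 1413 CPM, HDC at 281, GYPB at 5.36 and CYTL1 at 92.4 CPM. No cell was in both subsets. By hashtag the HBD subset had 22, 24, 10 and 4 cells from 0252 to 0255 and the eosinophil subset 14, 14, 5 and 3. The 1317 cells left without them still had 115 CPM of GATA1, 146 of GYPB, 118 of HDC and 248 of CYTL1, so the levels of these genes did not rest on the subsets, whereas HBD dropped to 44.8 and CLC to 8.78 CPM.

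Erythroid genes were found together in single cells. Of 455 thinned cells with GYPB 272 had GATA1, where independent detection would give 185, and 174 had HBD, where it would give 77.9. RHAG was seen in 56.7% of cells with GYPB and 25.4% of those without. HDC with GATA1 was seen in 272 cells against 216, and CLC with GYPB in 18 against 26.4. MPO and GYPB were found together in 108 cells against 124. Over the cells the summed erythroid and mast cell lists had a Spearman rho of 0.15, with shared library and depth, and erythroid with lymphoid genes -0.23, which are weak relations.

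Levels within the CD34 GATA2 cells also differed by hashtag. GYPB was at 212, 181, 122 and 85.3 CPM and HBD at 218, 243, 96.8 and 63.1 CPM from 0252 to 0255, so both were higher in 0252 and 0253 than in 0254 and 0255. The summed erythroid and megakaryocyte list gave 1202, 1175, 912 and 749 CPM. The lymphoid list ran the other way, with 302, 311, 553 and 677 CPM, and DLK1 with 587, 622, 699 and 730 CPM. Other kept cells had the same order for GYPB (86.3, 64.5, 58.0 and 28.2 CPM). Their erythroid and megakaryocyte list gave 954, 1064, 758 and 617 CPM and their lymphoid list 338, 367, 730 and 952 CPM. Differences between the first and last pair of hashtags in GYPB and these lists were thus not limited to the CD34 GATA2 cells.

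For 3 erythroid genes with large ratios over SPINK2 progenitors or other kept cells the 120 bases before their starts are shown, with the GATA letters in capitals. They were picked because they hold these letters, whereas the windows of RHAG, GATA1, KLF1, ITGA2B and GFI1B do not. The letters searched were AGATAA, or TTATCT on the other strand, which are a form of the sequence that GATA factors bind. Other forms were not searched, so a window without these letters may still hold such a sequence. Sequences are from RefSeq (GRCh38.p14), placed on hg19 by an exact match, on the minus strand and read 5′ to 3′ toward the start. GYPB lies at chr4:144940499-144940618, GYPE at chr4:144826713-144826832 and HBD at chr11:5255714-5255833.
GYPB: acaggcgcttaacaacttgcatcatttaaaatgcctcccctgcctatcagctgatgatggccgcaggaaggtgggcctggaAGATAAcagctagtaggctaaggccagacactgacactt
GYPE: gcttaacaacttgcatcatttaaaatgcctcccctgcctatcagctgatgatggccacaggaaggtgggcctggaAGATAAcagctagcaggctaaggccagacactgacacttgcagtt
HBD: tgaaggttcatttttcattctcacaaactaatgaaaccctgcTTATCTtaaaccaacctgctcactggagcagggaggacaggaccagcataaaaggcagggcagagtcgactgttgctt

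The first base of the letters lay 39 bases before the start in GYPB, 45 in GYPE and 78 in HBD, and the first pair of sequences shows how alike these glycophorin genes are. A second RefSeq start of GYPB lies upstream, and its window does not hold the letters. In the 250 bases before a start, on either strand, the letters were found for 3037 of 27305 genes of the promoter table (11.1%), and for 432 of the 6695 measured genes that have a promoter there (6.45%). A gene counted if any of its listed starts held the letters. Of the 10 leading higher genes 9 had a promoter and 3 of them held the letters, but STXBP6 and FREM1 not at every listed start. Of the 10 leading lower genes 8 had a promoter and 1 of them held the letters. CD34, GATA2 and CYTL1 did not hold them. For the 110 higher genes the share is void, because 79 of them had a promoter in the table.

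Neighbors were found in genes that the rule did not use. In 40 principal components of 2363 variable genes, with the rule's genes left out, 56.3% of the 15 nearest neighbors of a CD34 GATA2 cell were other CD34 GATA2 cells, against 18.7% of kept cells. Such grouping was not particular to them, since the share of neighbors of the same group was 56.9% in SPINK2 progenitors, 55.9% in lineage-low cells, 72.1% in C1Q cells and 82.2% in ELANE cells. Lineage-low cells were the next most frequent neighbors, at 30.6%, below their 36.5% of kept cells, followed by SPINK2 progenitors at 7.12% (11.3% of kept cells), CPA3 cells 2.06% (1.35%) and globin cells 2.04% (2.70%). ELANE cells gave 0.845% and C1Q cells 0.0425%. In 906 of the cells (64.1%) at least 8 of the 15 neighbors were of their own kind, in 186 (13.2%) at least 8 were lineage-low cells, and in 14 none was of their own kind.

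**Figure D4:**
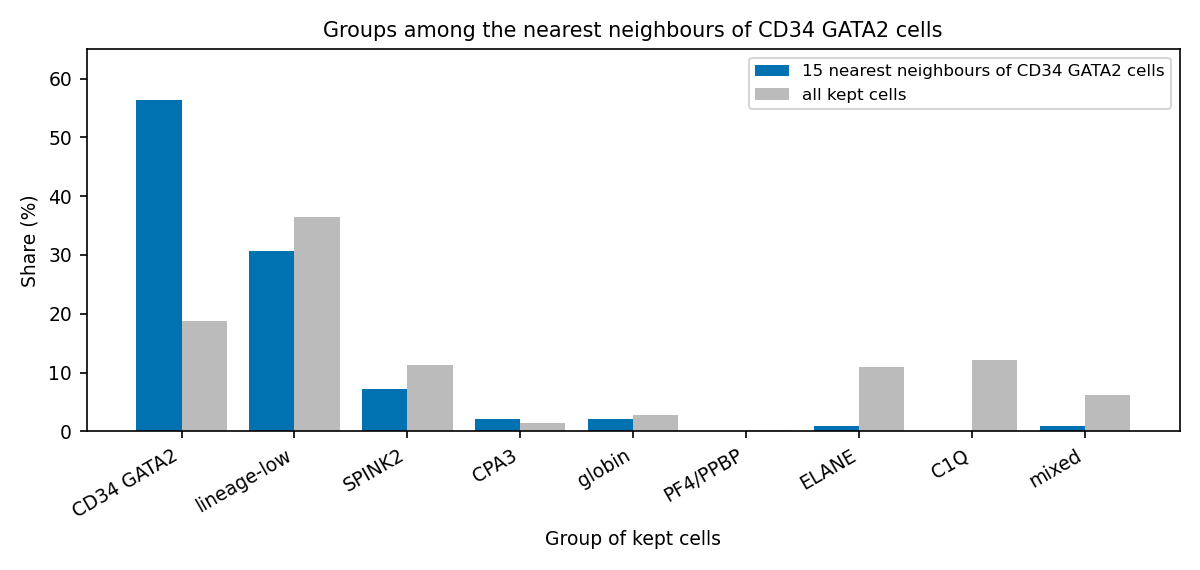
Share of each group among the 15 nearest neighbors of CD34 GATA2 cells (blue) beside its share of all kept cells (grey), in percent. CD34 GATA2 cells make up 56.3% of neighbors and 18.7% of kept cells, and only they and CPA3 cells (2.06 against 1.35%) are more common among the neighbors.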

How the data were processed

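The authors aligned cDNA and hashtag reads to hg19 with Cell Ranger 6.0.1 (submitters' processing notes) and deposited raw UMI counts for 32738 genes and 4 hashtags in 10836 barcodes, with a hashtag call for each. Barcodes called for 1 hashtag (8488) were kept at no more than 36000 gene UMIs, 6000 genes and 18% mitochondrial UMIs, which left 7550 cells with 142110950 UMIs. Members, comparison groups and gene lists were chosen with earlier results of these data known. Levels are CPM of summed UMIs with exact Poisson or conditional 95% intervals, and ratios on the log2 scale use a pseudocount of 1 CPM. Genes named are those of the rule and lists, the 10 (other kept cells) or 8 (like groups) largest ratios each way among genes with 20 CPM and 1 direction in all hashtags, and the 10 most variable. Of the list genes, 267 of 270 were found. The values of 1 list gene are not reported here. Cells were thinned to 5000 UMIs with a fixed seed. No doublet caller was applied except Scrublet in an alternative, and hashtag doublets were left out. Steps were tested on simulated data. Python 3.11.15, numpy 2.4.6, scipy 1.17.1, scanpy 1.11.5 and scikit-learn 1.9.0 were used.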

Additional observations from a re-analysis of the deposited data

Results flagged for a closer look

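Barcodes that the deposited table calls Negative entered none of the comparisons, yet 321 of the 809 within the limits met the rule of the CD34 GATA2 cells (39.7%, 36.3 to 43.1), against 18.7% of cells called for 1 hashtag. Their CYTL1 was 265 CPM, beside 246 CPM in the CD34 GATA2 cells. Seen from the other side, 18.5% (16.7 to 20.4) of all called or Negative barcodes that met the rule were Negative, against 7.37% of those that did not. CPA3 cells had the same share (18.4%, 12.0 to 26.3), and it was 10.8% in lineage-low, 8.11% in globin, 5.07% in ELANE, 4.70% in SPINK2 and 1.40% in C1Q cells, so it was not particular to the CD34 GATA2 cells. The share was higher in each of 5 equal groups by depth, at 41.1% against 14.2% in the shallowest and 8.81% against 3.20% in the deepest. CD34 GATA2 cells had a median of 52.3 hashtag UMIs per 1000 gene UMIs, against 77.6 in other kept cells, with 58.8 to 60.4 in CPA3, SPINK2 and globin cells, 71.1 in ELANE, 75.6 in lineage-low and 176 in C1Q cells. B2M was at 904 CPM in the CD34 GATA2 cells, 1088 CPM in other kept cells, 1688 CPM in C1Q cells, 1067 CPM in lineage-low cells, between 940 and 977 CPM in globin, SPINK2 and CPA3 cells, and 806 CPM in ELANE cells. ATP1B3 ran differently, at 171 CPM in the CD34 GATA2 cells and 166 CPM in other kept cells. It was lowest among these groups in C1Q cells, at 119 CPM, and highest in ELANE cells, at 206 CPM. The part of hashtag labeling in the calls was not tested.

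Of the 834 Doublet barcodes within the limits, 156 met the rule (18.7%, the same as among called cells), with CYTL1 at 208 CPM. A count of 0 would have allowed up to 0.360% of them.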

How the results depend on the processing

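The share of CD34 GATA2 cells (18.7%) depended on the rule and on the cells kept. It was 27.4% with a minimum of 1 UMI of CD34 and of GATA2 and 12.1% with a minimum of 3, 15.1% with counts scaled to 18000 UMIs per cell, 16.1% with the lineage limits halved and 21.2% with no limit on SPINK2. With a mitochondrial limit of 10%, which left 736 cells, it was 4.76% (35 cells). Leaving out each hashtag in turn gave 18.2 to 19.8%, the highest without 0255. Scrublet, given an expected rate of 6%, called 11 of the CD34 GATA2 cells doublets (0.778%), near the 0.847% of other kept cells. Without its calls the share was 18.7%.

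The counts of genes at least 2-fold higher (110) and lower (310) became 182 and 608 with the 10% mitochondrial limit, 33 and 177 with a pseudocount of 10 CPM, and 40 and 88 among the 2905 genes with at least 50 CPM. Over all 20518 genes seen in 3 or more kept cells they were 160 and 678. The other alternatives kept both within 1.5 times, and leaving out each hashtag gave 94 to 118 higher and 286 to 326 lower genes. The CYTL1 log2 ratio (1.02) was 1.15 and 0.91 with a minimum of 1 and 3 UMIs, 0.95 with scaled counts, 1.08 with no SPINK2 limit, 1.64 with the 10% mitochondrial limit, 1.08 as a mean over cells, 0.97 with a pseudocount of 10 CPM, and 0.97 to 1.08 without each hashtag. It was above 0 under every alternative run.

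A pair of alternatives was chosen after seeing the data. Keeping Negative barcodes gave a share of 20.7% and a CYTL1 log2 ratio of 0.98, and leaving out the cells with many HBD or CLC, PRG3 and EPX UMIs gave a share of 17.7%. Of 124 named genes at least 1.5-fold apart in the pool with the same direction in all 4 hashtags, followed through 18 alternatives, 1 of 2232 ratios changed sign, that of IL3RA at 0.25 with the 10% mitochondrial limit, and 55 ratios of 24 genes dropped under 1.5-fold. The causes were not tested.

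CD34 GATA2 cells and other kept cells were compared within each of the 4 hashtags. The study has 1 RNA library and no replicate numbers, so no pairing by replicate was made. With 30029092 UMIs in the CD34 GATA2 cells, counting error is small for pooled levels, but the spread between separate cultures is unknown. Genes under 10 CPM both in these cells and in other kept cells, HLF and CDH5 among them, were left out of that comparison. The alternative over all genes seen in 3 or more kept cells did count them. Groups of few cells (102 CPA3 cells) limit ratios of low genes.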
